A study of Mus musculus with 8 samples.

Results

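Genes that mark the projection neurons of the striatum were followed in bulk RNA sequencing libraries of the whole mouse forebrain. They were taken from the deposited count table by symbol, as 39 named genes, of which 38 had a row among the 53278 symbols of the table and all 38 passed the filter on low counts, out of 20140 symbols tested. Gpr52, the remaining gene, is not analysed here. For 9 days 4 mice were fed PLX3397, which blocks the receptor kinase CSF1R that keeps microglia alive (PLX3397 mice), while another 4 received the control diet (control mice). All 8 were male C57BL/6J mice, and the labels give an age of 10 to 20 weeks for the study's mice in general and name no genotype beyond the strain. Each library is the forebrain of 1 mouse, with 48455538 to 68406688 counts. The genes were listed with these libraries' values in view, both their shared variation over the 8 mice and their levels in PLX3397 and control mice. Their levels and fold changes are therefore given as a description, and no test of this contrast is used to support anything about them.

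Striatal projection neurons are GABA neurons that make up most of the caudate-putamen and accumbens and receive dense dopamine input. Those of the direct pathway carry the dopamine receptor DRD1, which raises cyclic AMP through the olfactory-type G protein, and those of the indirect pathway carry DRD2, which lowers it. Both kinds share a cyclic AMP machinery (ADCY5, the phosphatase inhibitor DARPP-32 encoded by Ppp1r1b, the phosphodiesterase PDE10A) that is far more abundant in striatum than in most other forebrain regions. In a bulk library, fewer cells of a type and less RNA per cell cannot be told apart.

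Promoter sequence is shown for 4 members of the 2 pathways, since the members varied together over the mice. RefSeq start sites of the GRCm38.p6 build gave windows of 300 bases (250 before and 50 after the start) for 28 of the 38 genes. In the windows below, which read 5′ to 3′ along the gene, capitals mark the core cyclic AMP response element TGACG and the GC box GGGCGG, each searched on both strands.
Drd1 (direct pathway), chr13:54055609-54055908, minus strand: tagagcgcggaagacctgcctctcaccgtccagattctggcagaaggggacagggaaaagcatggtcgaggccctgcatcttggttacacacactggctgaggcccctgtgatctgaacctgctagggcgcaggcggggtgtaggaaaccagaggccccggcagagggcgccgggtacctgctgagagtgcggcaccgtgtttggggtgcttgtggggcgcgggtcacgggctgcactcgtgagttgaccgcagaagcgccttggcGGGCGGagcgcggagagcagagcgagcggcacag
Slc35d3 (direct pathway), chr10:19851410-19851709, minus strand: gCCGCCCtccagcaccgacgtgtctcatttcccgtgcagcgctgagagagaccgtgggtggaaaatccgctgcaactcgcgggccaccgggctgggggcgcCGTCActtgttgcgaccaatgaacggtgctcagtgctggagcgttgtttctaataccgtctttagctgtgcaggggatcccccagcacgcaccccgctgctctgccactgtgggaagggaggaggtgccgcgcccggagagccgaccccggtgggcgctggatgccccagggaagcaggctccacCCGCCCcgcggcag
Drd2 (indirect pathway), chr9:49340153-49340452, plus strand: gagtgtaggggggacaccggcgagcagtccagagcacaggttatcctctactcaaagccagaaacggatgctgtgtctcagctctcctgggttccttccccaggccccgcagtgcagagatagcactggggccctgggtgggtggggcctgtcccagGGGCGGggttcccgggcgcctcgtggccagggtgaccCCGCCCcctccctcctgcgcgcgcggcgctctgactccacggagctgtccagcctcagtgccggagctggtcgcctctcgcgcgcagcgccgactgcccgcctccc
Gpr6 (indirect pathway), chr10:41072241-41072540, minus strand: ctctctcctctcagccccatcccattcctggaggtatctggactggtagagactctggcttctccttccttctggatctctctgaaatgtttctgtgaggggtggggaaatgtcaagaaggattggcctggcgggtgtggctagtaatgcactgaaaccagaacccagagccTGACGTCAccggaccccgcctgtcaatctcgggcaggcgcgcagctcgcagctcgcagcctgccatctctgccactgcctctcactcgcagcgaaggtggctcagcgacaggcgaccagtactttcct
The Gpr6 window held a full response element, TGACGTCA, starting 78 bases before the start site, in which 2 core elements on opposite strands overlap. It was the only one of the 47 member windows with the full element (2.13%), against 1.79% of all 32817 windows. Core elements stood in 12 member windows (25.5%, against 20.8% of all windows) and GC boxes in 20 (42.6%, against 35.6%). Member windows were richer in G and C, at a median of 58.7% against 52.7% of all windows, and the part of this in the shares was not tested. Some windows of a gene overlap, as in Arpp21, so they are not independent. The TATA box TATAAA (10.6% of member windows, 13.6% of all), the nuclear receptor motif AGGTCA (4.26%, 16.3%), the MEIS motif TGACAG (27.7%, 19.2%), the forkhead motif TGTTTAC (2.13%, 3.65%) and the EGR motif GCGTGGGCG (0.0%, 0.612%) were searched in the same way. The Drd1 and Drd2 windows printed here held GC boxes and no core element. A match is a run of letters and not a binding site.

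The forebrain carried these genes at very different levels. Scaled per length of exon (TPM, means over all 8 mice), Ppp1r1b was the most abundant at 524 TPM, followed by the phosphodiesterase gene Pde1b at 272 TPM and the G protein gamma subunit gene Gng7 at 271 TPM. Rasd2, which encodes the striatal small G protein RHES, averaged 233 TPM and Adcy5 193 TPM. Drd2 averaged 79.2 TPM and Drd1 57.2 TPM. At the low end stood the transcription factor gene Ebf1 at 2.61 TPM, the dopamine receptor gene Drd3 at 2.12 TPM and the tyrosine phosphatase gene Ptpn7 at 1.05 TPM. Neighbours in this order, such as Pde1b and Gng7, differed by far less than their spread between mice: Pde1b averaged 357 ± 130 TPM in PLX3397 mice and 188 ± 65.4 TPM in control mice, and Gng7 357 ± 139 TPM in PLX3397 mice and 185 ± 72.7 TPM in control mice (SD, n = 4 each).

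Most members shared their highest and their lowest mouse, and part of the order of the mice between them. PLX3397 mouse 3 was the highest of the 8 mice in 37 of 38 members, with Ebf1 as the exception, against 12.8% of all genes tested. Control mouse 1 was the lowest of the 8 in 34 members, against 18.4% of all genes, and control mouse 4 in the other 4 (Rasgrp2, Foxp2, Isl1 and Ebf1; 17.2% of all genes). PLX3397 mouse 2 was the lowest PLX3397 mouse in all 38 members (25.8% of all genes), and in all 38 it lay within the range of the control mice (67.0% of all genes). Control mouse 2 was the highest control mouse in 33 members (18.6% of all genes). The highest mouse had 7.36 times the level of the lowest in the median member, and 2.06 times (Bcl11b) to 52.6 times (Cd4) when Drd3, with 1 count in its lowest library, is left out. For all genes with an average of at least 1 CPM (counts scaled to library size by TMM) that median was 1.36. Averaged over the members, log2 CPM relative to the mean of the 8 mice was 0.90, -0.53, 1.19 and 0.82 in PLX3397 mice 1 to 4, and -1.61, 0.30, -0.16 and -0.91 in control mice 1 to 4.

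**Figure D1:**
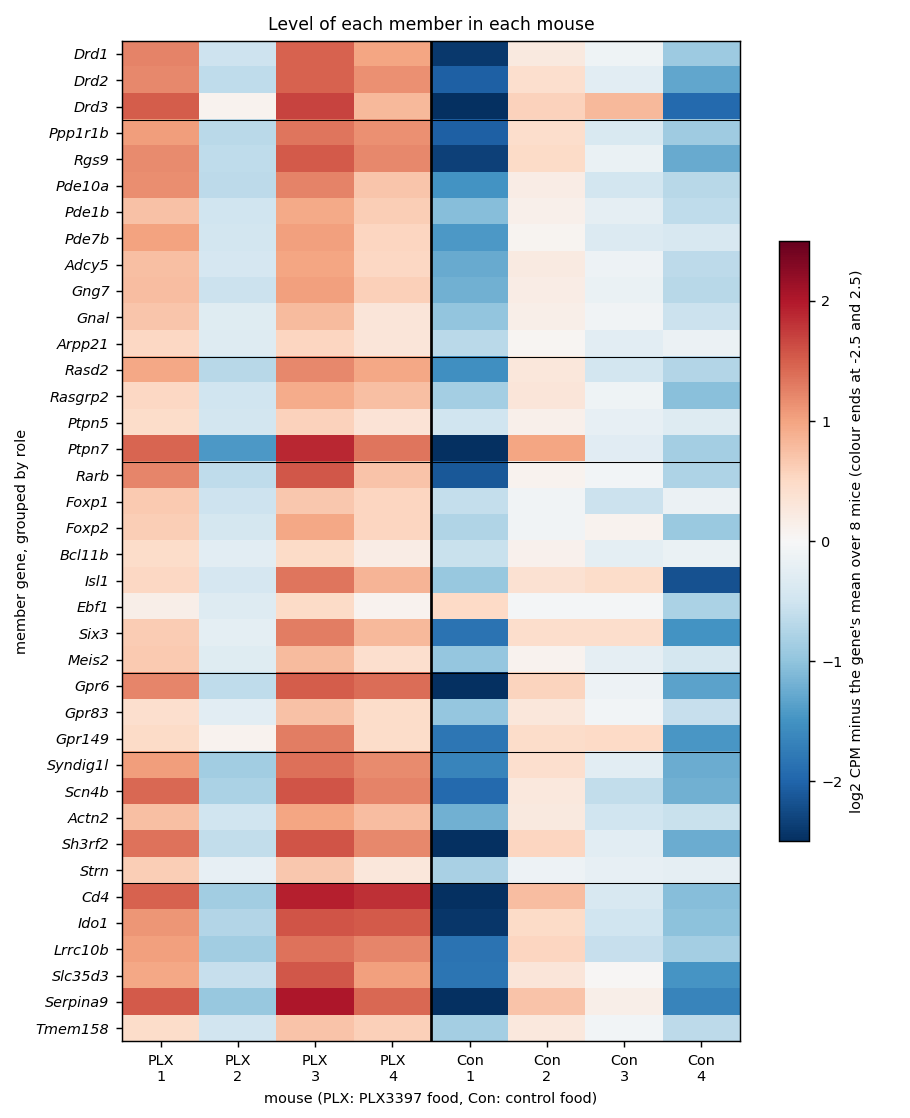
Log2 CPM of each of the 38 members (rows, grouped by role) in each mouse (columns), minus the mean of that gene over the 8 mice; red is above and blue below that mean. PLX3397 mice 1, 3 and 4 are red in nearly every row, PLX3397 mouse 2 is mostly pale blue, and control mouse 1 is the darkest blue in most rows, but not for Ebf1.

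Between the groups, the members had positive fold changes, from 0.15 (Ebf1) to 1.83 (Cd4) on the log2 scale, PLX3397 over control. Their median was 1.04, beside -0.00038 over all 20140 genes tested. All 38 were positive, against 49.9% of all genes. None passed an adjusted p of 0.05 in edgeR's quasi-likelihood test, where 1.16% of all genes passed with 0.0546% higher and 1.11% lower in PLX3397 mice. At an unadjusted p under 0.05 there were 31 members, against 5.38% of all genes as higher. DESeq2 called 1 member (Strn; 0.586% of all genes as higher) and limma-voom none (0.0447%). These counts belong to the contrast that was in view when the genes were listed, and nothing is read from them. In no member did the PLX3397 mice lie wholly above the control mice, as 2.28% of all genes did, or wholly below them, as 3.5% did. With PLX3397 mouse 2 set aside, the other 3 PLX3397 mice lay above all 4 control mice in 36 of 38 members (7.28% of all genes), all but Ebf1 and Gpr149. Fitted without PLX3397 mouse 2, 12 members passed (1.18% of all genes as higher) and the median was 1.29. Without control mouse 1 as well, 12 passed (0.676% of all genes as higher) and the median was 1.07; this fit was chosen after the values were seen.

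**Figure D2:**
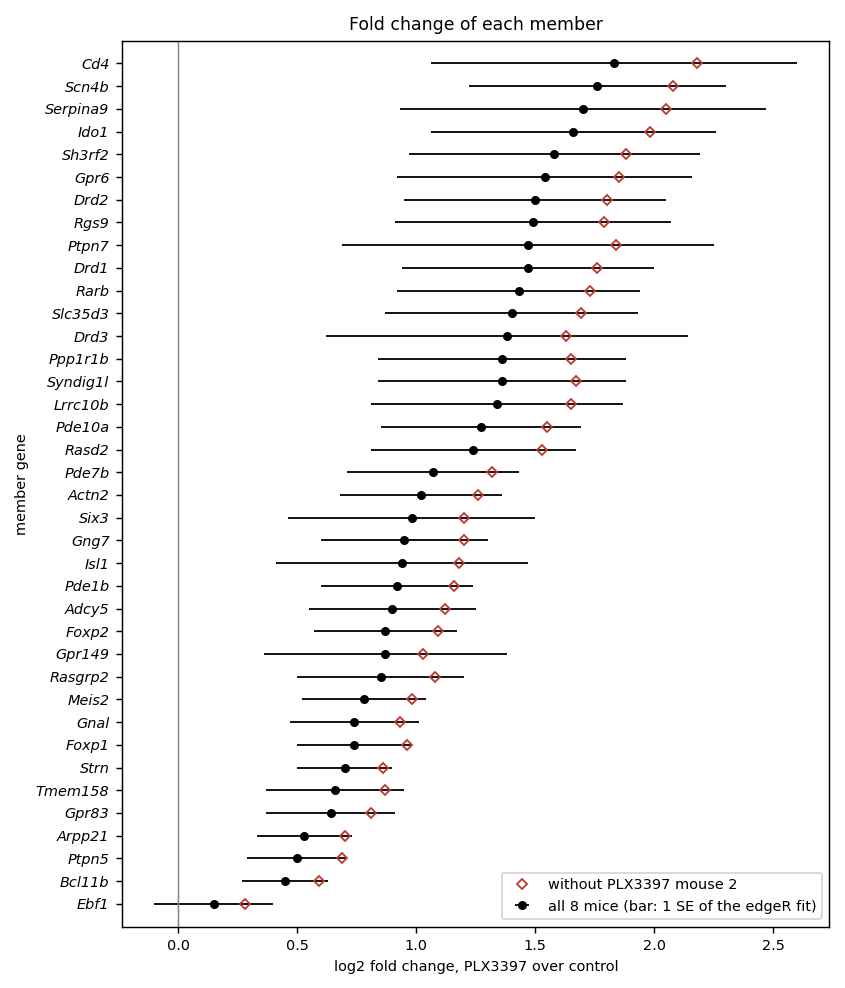
Log2 fold change of each member, PLX3397 over control, from the edgeR fit to all 8 mice (black, bar of 1 standard error) and without PLX3397 mouse 2 (red diamonds). Values run from 0.15 for Ebf1 to 1.83 for Cd4 in all 8 mice, and each is larger without PLX3397 mouse 2.

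The dopamine receptor genes showed the pattern plainly. Drd1 had 97.7, 28.8, 115 and 82.7 CPM in PLX3397 mice 1 to 4, against 7.76, 49.0, 38.5 and 22.2 CPM in control mice 1 to 4. Drd2 had 92.1, 25.7, 111 and 88.9 CPM in the PLX3397 mice, against 9.72, 53.7, 33.2 and 16.2 CPM in the control mice. For both receptors PLX3397 mouse 2 lay below control mice 2 and 3, and PLX3397 mouse 3 stood at 14.9 times (Drd1) and 11.4 times (Drd2) the level of control mouse 1. The log2 fold change was 1.47 (SE 0.53, adjusted p = 0.362) for Drd1 and 1.5 (SE 0.55, adjusted p = 0.362) for Drd2. Drd3, a D2-like receptor best known from the accumbens and the islands of Calleja, was rare, with 99, 32, 141 and 53 counts in the PLX3397 mice and 1, 45, 59 and 7 counts in the control mice. Its controls split into mice 2 and 3, within the range of the PLX3397 mice, and mice 1 and 4, far below it.

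The cyclic AMP and G protein genes followed the receptors, most of them over a narrower range. Ppp1r1b had 656, 199, 801 and 699.8 CPM in PLX3397 mice 1 to 4, against 76.9, 430.1, 243 and 171 CPM in control mice 1 to 4 (log2 fold change 1.36, SE 0.52). Adcy5, the main adenylyl cyclase of these neurons, had 555, 246, 654 and 471 CPM in the PLX3397 mice, against 137, 387, 302 and 209 CPM in the control mice (0.90, SE 0.35). In both genes PLX3397 mouse 2 lay below control mice 2 and 3, so the groups overlapped. Gnal, the gene of the olfactory-type alpha subunit that couples DRD1 to adenylyl cyclase, had 422, 213, 453 and 323 CPM in the PLX3397 mice, against 133, 288, 245 and 180.3 CPM in the control mice (0.74, SE 0.27). Its partner Gng7 had 410.5, 167, 496 and 368 CPM in the PLX3397 mice, against 105, 275, 215 and 150.4 CPM in the control mice (0.95, SE 0.35).

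The 3 phosphodiesterase genes, whose enzymes break cyclic nucleotides down again, differed in range. Pde10a had 528, 150.0, 557 and 381 CPM in the PLX3397 mice, against 84.1, 269, 172 and 145 CPM in the control mice (log2 fold change 1.27, SE 0.42). Pde1b, a calmodulin-dependent enzyme gene, had 585, 249, 679 and 539 CPM in the PLX3397 mice, against 167, 387, 303 and 225 CPM in the control mice (0.92, SE 0.32). Pde7b had 103, 36.9, 104 and 74.5 CPM in the PLX3397 mice, against 18.9, 53.8, 40.2 and 38.5 CPM in the control mice (1.07, SE 0.36). In each of the 3 genes control mouse 2 stood above PLX3397 mouse 2. Rgs9, which shortens receptor signals by speeding GTP hydrolysis, spread over 14.6 times between its extremes, with 191, 54.2, 242 and 193 CPM in the PLX3397 mice and 16.6, 116, 74.6 and 34.9 CPM in the control mice (1.49, SE 0.58). Arpp21, another phosphoprotein regulated by cyclic AMP, which cortical neurons also express, spread over 2.33 times, with 785, 441, 801 and 684 CPM in the PLX3397 mice and 344, 568, 459.5 and 502 CPM in the control mice (0.53, SE 0.20).

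**Figure D3:**
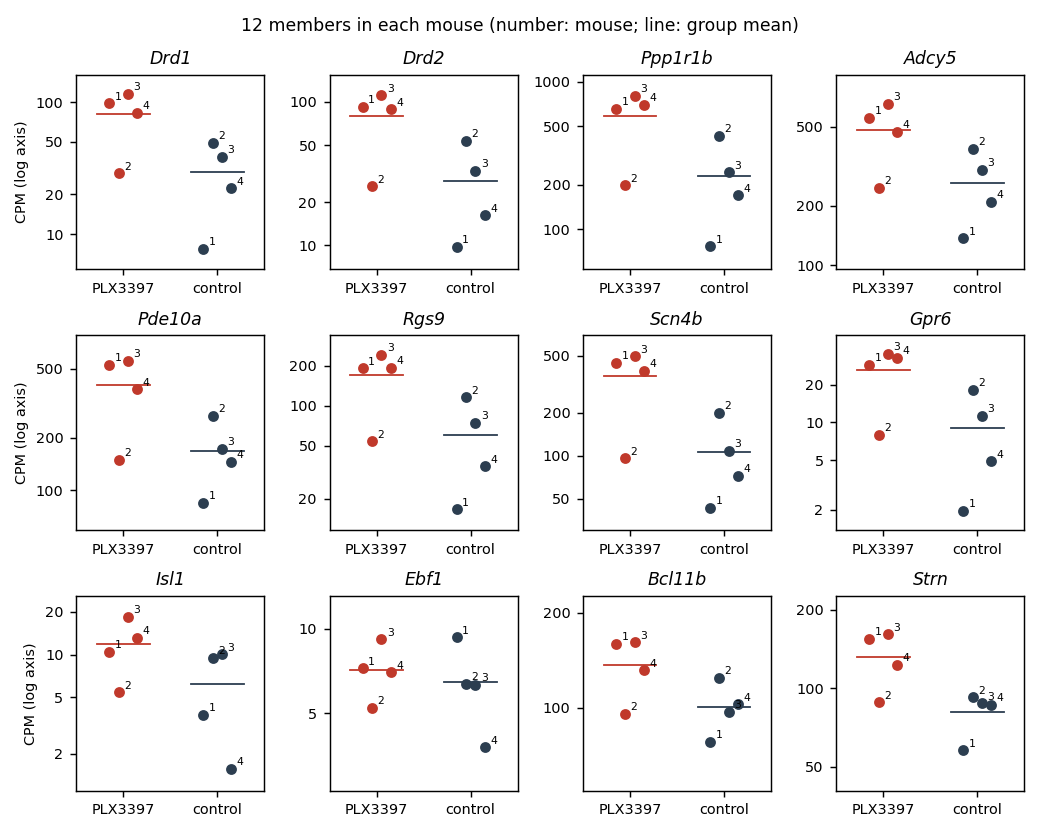
CPM of 12 members in each mouse on log axes that differ between panels, PLX3397 mice on the left and control mice on the right of each panel; numbers name the mouse and lines are group means. PLX3397 mouse 2 sits among the control mice in every panel, and control mouse 1 is lowest except for Isl1 and Ebf1, where control mouse 4 is.

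Among the Ras-like proteins and tyrosine phosphatases, Rasd2 had a log2 fold change of 1.24 (SE 0.43) and was the member whose profile over the mice lay nearest to the members' mean, within 0.31 of it on the log2 scale in every mouse. Rasgrp2, an exchange factor gene for Rap, stood at 0.85 (SE 0.35) and was lowest in control mouse 4, at 38.0 CPM. Ptpn5, the gene of the striatum-enriched phosphatase STEP, which also occurs in cortex and hippocampus, stood at 0.50 (SE 0.21), between 204 and 421 CPM in the PLX3397 mice and between 198 and 306 CPM in the control mice. Ptpn7, better known from blood cells, had 163, 18, 276 and 133 counts in PLX3397 mice 1 to 4, against 5, 104, 47 and 31 counts in control mice 1 to 4.

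The transcription factor genes ranged from members that followed the receptors to members that did not. Rarb, a retinoic acid receptor gene, stood at 1.43 (SE 0.51) and its levels ran from 3.99 to 18.3 CPM in the PLX3397 mice and from 1.39 to 6.57 CPM in the control mice. Foxp1 (0.74, SE 0.24), Foxp2 (0.87, SE 0.30) and Meis2 (0.78, SE 0.26) lay in the middle. Bcl11b, which encodes CTIP2 and is also a gene of deep cortical layers, stood at 0.45 (SE 0.18) with 159, 95.7, 161 and 132 CPM in the PLX3397 mice and 78.0, 124, 97.0 and 102 CPM in the control mice. Isl1 and Ebf1 were lowest in control mouse 4, and Six3 in control mouse 1. Isl1, needed for direct-pathway neurons, had 10.5, 5.43, 18.4 and 13.2 CPM in the PLX3397 mice, against 3.76, 9.47, 10.1 and 1.57 CPM in the control mice (0.94, SE 0.53). Six3, needed for indirect-pathway neurons, had 33.6, 18.1, 52.3 and 37.7 CPM in the PLX3397 mice, against 5.94, 29.3, 29.2 and 7.62 CPM in the control mice (0.98, SE 0.52). Both had their 2 lowest values in control mice 1 and 4. Ebf1, which vascular cells also express, had 7.24, 5.23, 9.18 and 6.99 CPM in the PLX3397 mice, against 9.32, 6.36, 6.30 and 3.79 CPM in the control mice (0.15, SE 0.25), and was highest in control mouse 1, where the other members were low.

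Of the orphan receptor genes, Gpr6, a constitutively active receptor of indirect-pathway neurons whose promoter window held the full response element, had 29.0, 7.97, 35.5 and 32.8 CPM in the PLX3397 mice, against 1.97, 18.2, 11.4 and 4.88 CPM in the control mice (log2 fold change 1.54, SE 0.62). Gpr83 stood at 0.64 (SE 0.27). Gpr149 stood at 0.87 (SE 0.51) with 7.89, 6.00, 13.8 and 7.80 CPM in the PLX3397 mice and 1.59, 7.81, 8.01 and 2.05 CPM in the control mice. The hypothalamus list, which sums Hcrt, Pmch, Oxt, Avp, Trh, Agrp, Pomc, Sim1 and Nkx2-1, was low in the same 2 control mice, with 16.1, 170.5, 209.9 and 84.4 CPM in PLX3397 mice 1 to 4, against 24.6, 203, 209.7 and 18.0 CPM in control mice 1 to 4. PLX3397 mouse 1, which had the lowest hypothalamus sum, was among the 3 highest mice for Drd1, Drd2 and Ppp1r1b. The part of hypothalamic tissue in the levels of Drd3, Isl1, Six3 and Gpr149 was not tested.

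Genes of channels, synapses and scaffolds included Scn4b, whose fold change was second only to that of Cd4. This gene, which encodes a sodium channel beta subunit linked to resurgent current, had 449, 95.9, 497 and 394 CPM in the PLX3397 mice, against 43.4, 200.4, 108 and 72.5 CPM in the control mice (log2 fold change 1.76, SE 0.54). PLX3397 mice 1, 3 and 4 all lay above the highest control mouse, and PLX3397 mouse 2 lay below control mice 2 and 3. Syndig1l (1.36, SE 0.52), Sh3rf2 (1.58, SE 0.61) and Actn2, the alpha-actinin gene that anchors NMDA receptors (1.02, SE 0.34), had the same highest and lowest mouse. Strn, the gene of the scaffold protein striatin, had 155, 88.2, 161 and 123 CPM in the PLX3397 mice, against 57.7, 92.4, 87.5 and 86.2 CPM in the control mice (0.70, SE 0.20), and had the smallest adjusted p of the members (0.23). Its controls 2 to 4 were nearly level with PLX3397 mouse 2.

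Some of the steepest members were rare transcripts outside the dopamine pathway. Cd4, the T cell co-receptor gene, had 25.1, 4.88, 34.6 and 31.7 CPM in the PLX3397 mice, against 0.658, 15.4, 6.82 and 4.29 CPM in the control mice (log2 fold change 1.83, SE 0.77). Of 7 other T lymphocyte genes, Cd3e, Cd3d, Cd3g, Cd8a and Cd2 were too low to be tested. The 2 tested genes, Trac and Lck, summed to 2.03 to 3.19 CPM in PLX3397 mice and 2.44 to 3.25 CPM in control mice. Their sum was below Cd4 alone in 7 of the 8 mice. The microglia list summed to 18.4, 17.2, 23.0 and 23.6 CPM in PLX3397 mice 1 to 4, against 266, 320.2, 288 and 274 CPM in control mice 1 to 4, and its part in the level of Cd4 was not tested. Ido1, which degrades tryptophan, stood at 1.66 (SE 0.60) and Serpina9, a serpin gene, at 1.70 (SE 0.77). Lrrc10b (1.34, SE 0.53) and Tmem158 (0.66, SE 0.29) had the same highest and lowest mouse as Drd1, and so did Slc35d3, a gene of the nucleotide sugar transporter family found in direct-pathway neurons, with 17.1, 5.88, 25.8 and 17.8 CPM in the PLX3397 mice and 2.43, 10.9, 8.97 and 3.13 CPM in the control mice (1.4, SE 0.53).

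Direct-pathway and indirect-pathway members moved together over the mice, which the ratio of the receptors shows most simply. The log2 ratio of Drd1 to Drd2 CPM was 0.09, 0.16, 0.06 and -0.10 in PLX3397 mice 1 to 4 (mean 0.05 ± 0.11 SD), against -0.32, -0.13, 0.22 and 0.46 in control mice 1 to 4 (mean 0.06 ± 0.35 SD). Per length of transcript, Drd1 had 0.745, 0.787, 0.729 and 0.653 times the TPM of Drd2 in the PLX3397 mice, against 0.561, 0.641, 0.815 and 0.964 times in the control mice. The ratio thus ran from 0.561 to 0.964 while Drd1 itself varied by 14.9 times over the mice. The mean log2 CPM of the 4 direct-pathway members (Drd1, Isl1, Ebf1, Slc35d3) minus that of the 3 indirect-pathway members (Drd2, Gpr6, Six3) was -1.24, -0.89, -1.15 and -1.32 in the PLX3397 mice, against 0.06, -1.19, -0.87 and -0.89 in the control mice. The means were -1.15 ± 0.19 in PLX3397 mice and -0.72 ± 0.54 in control mice (SD, n = 4 each), a difference of -0.43 that was smaller than the spread of the control mice. Without control mouse 1 the difference was -0.17, and without Ebf1 it was -0.13. Control mouse 1 remained the highest of the control mice without Ebf1, at -0.23, against -0.83, -0.55 and -0.81 in control mice 2 to 4. Pathway genes that are not members (Tac1, Pdyn, Chrm4 and Eya1 minus Adora2a, Penk, Sp9 and Plxdc1) gave -0.89, -0.50, -0.87 and -1.02 in PLX3397 mice 1 to 4, against -0.06, -0.69, -0.47 and -0.34 in control mice 1 to 4. Their means were -0.82 ± 0.22 in PLX3397 mice and -0.39 ± 0.26 in control mice (SD, n = 4 each), a difference of -0.43 with groups that overlapped, and it was not tested. Single genes weigh heavily on it. Eya1 had a log2 fold change of -0.44, beside 1.06 for Tac1, 0.83 for Pdyn and 0.70 for Chrm4. The indirect-pathway genes ran from 0.08 (Plxdc1) to 1.56 (Adora2a).

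**Figure D4:**
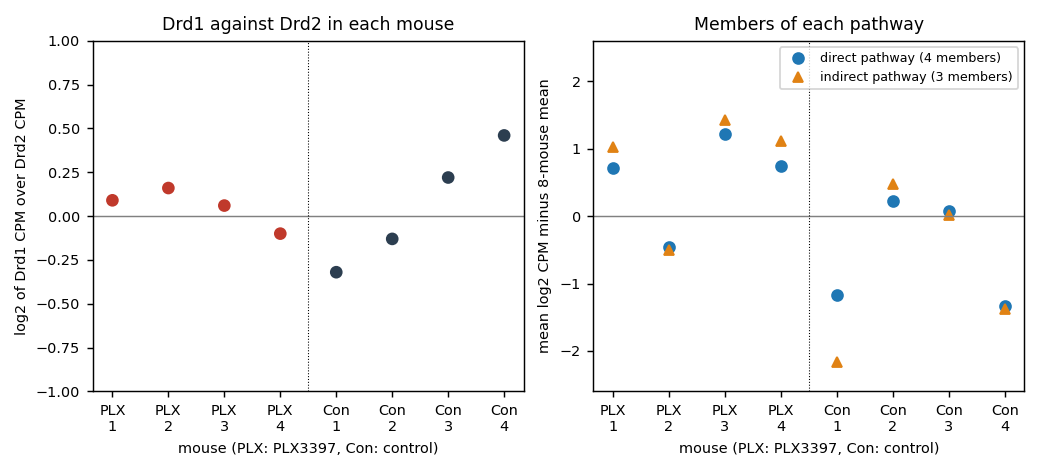
Left, log2 ratio of Drd1 to Drd2 CPM in each mouse (red, PLX3397; dark, control); right, mean log2 CPM of the direct-pathway members (circles) and of the indirect-pathway members (triangles) minus their 8-mouse mean. The ratio stays between -0.32 and 0.46, and the 2 pathways lie close together in every mouse except control mouse 1, where the direct members stand at -1.17 and the indirect members at -2.17.

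Genes of the same neurons that are not among the members were tested over all genes. Of 14 such genes, 0 passed in edgeR, 0 in DESeq2 and 0 in limma-voom. At an unadjusted p under 0.05, 9 were higher and 1 lower, against 5.38% of all genes as higher. Their median log2 fold change was 0.76, beside 1.04 for the members. The adenosine receptor gene Adora2a, the classical partner of Drd2, had 123, 30.1, 140.0 and 113 CPM in the PLX3397 mice, against 6.41, 70.9, 38.9 and 21.2 CPM in the control mice (1.56, SE 0.65, adjusted p = 0.417). The enkephalin precursor gene Penk of the indirect pathway stood at 1.13 (SE 0.51, adjusted p = 0.457), and the direct-pathway precursor genes Tac1 at 1.06 (SE 0.42, adjusted p = 0.398) and Pdyn at 0.83 (SE 0.38, adjusted p = 0.470). The muscarinic receptor gene Chrm4 (0.70, adjusted p = 0.378), the transcription factor genes Sp9 (0.80, adjusted p = 0.364) and Eya1 (-0.44, adjusted p = 0.303) and the RGS-binding protein gene Rgs7bp (0.42, adjusted p = 0.329) did not pass either. Eya1 was the 1 gene of the 14 with a negative fold change. In the edgeR fit without PLX3397 mouse 2, Phactr1 (adjusted p = 0.0210), Chrm4 (adjusted p = 0.0307) and Rgs7bp (adjusted p = 0.0388) passed. In that fit 1.18% of all genes passed as higher.

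Further genes of the same signalling chain showed less of this variation as a list, but some of them shared part of it. Of 32 further dopamine and cyclic AMP signalling genes, 0 passed in edgeR and in limma-voom and 1 in DESeq2 (Pde4b). At an unadjusted p under 0.05 there were 9, all positive, against 5.38% of all genes as higher. The median was 0.08. Gnb5, Prkar2b, Pde8b, Rgs2 and Rgs8 were lowest in control mouse 1, as were most members and 18.4% of all genes. So were Gnao1 (log2 fold change 0.08) and Creb1 (0.04). Rgs2 was highest in PLX3397 mouse 3, as most members were, but Gnb5, Prkar2b, Pde8b and Rgs8 were highest in PLX3397 mouse 1. Others, such as Gnas and Adcy1, were lowest in a PLX3397 mouse. In Pde4b all PLX3397 mice lay above all control mice. Drd4 and Drd5 were rare, at 0.283 and 3.14 TPM over all 8 mice. The phosphodiesterase gene Pde4b stood at 0.40 (SE 0.11, adjusted p = 0.194) and the protein kinase A regulatory subunit gene Prkar2b at 0.47 (SE 0.14, adjusted p = 0.269). Without PLX3397 mouse 2, 8 genes of these 2 lists passed, against 1.18% of all genes as higher. From the signalling list these were Prkar2b (adjusted p = 0.0358), Gnb5, Ppp1ca, Ppp1cc and Pde8b. Summed over the list, these genes had 8408 to 9691 CPM in PLX3397 mice and 7692 to 9108 CPM in control mice. The members summed to 2896 to 8025 CPM in PLX3397 mice and 1873 to 4622 CPM in control mice.

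Marker lists of other cells and regions were set beside the members, and their part in the members' levels was not tested. General neuron genes summed to 7081 to 8787 CPM in PLX3397 mice and 7310.2 to 8738 CPM in control mice, and 0 of 10 passed (Syp -0.18, adjusted p = 0.554; Eno2 0.10, adjusted p = 0.670). GABA neuron genes summed to 1039, 785, 1253 and 943 CPM in PLX3397 mice 1 to 4, against 538, 833, 878 and 638 CPM in control mice 1 to 4, with the same highest and lowest mouse as most members. Of 7 genes 0 passed (Dlx2 0.62, adjusted p = 0.255, and Gad1 0.38, adjusted p = 0.309). At an unadjusted p under 0.05, 6 were higher, against 5.38% of all genes. Excitatory neuron genes of cortex and hippocampus were lowest in PLX3397 mouse 3, with 1748, 1601, 862 and 1466 CPM in the PLX3397 mice and 1805, 1507, 1252 and 2253 CPM in the control mice; 0 of 10 passed, 1 at an unadjusted p under 0.05 (Fezf2 -0.61, adjusted p = 0.434; Neurod2 -0.49, adjusted p = 0.510). Of 9 striatal interneuron genes 0 passed, 0 at an unadjusted p under 0.05; Slc18a3, the vesicular acetylcholine transporter gene, had 5.19, 3.23, 6.91 and 6.5 CPM in the PLX3397 mice, against 0.694, 3.89, 4.04 and 0.795 CPM in the control mice (1.22, SE 0.54, adjusted p = 0.455), the same split of controls as Isl1 and Six3, while Sst stood at -0.15 (adjusted p = 0.480). Midbrain dopamine neuron genes summed to 21.64, 114.8, 34.99 and 27.99 CPM in PLX3397 mice 1 to 4. In control mice 1 to 4 they summed to 98.04, 33.82, 100.8 and 17.53 CPM. This sum was highest in PLX3397 mouse 2, the lowest PLX3397 mouse in all members. Control mouse 1, the lowest mouse in most members, also had a high sum. Control mouse 3 had a high sum too, and control mouse 4 had the lowest sum of all mice. Oligodendrocyte genes summed to 6483 to 9692 CPM in PLX3397 mice and 4157 to 8164 CPM in control mice. Of 7 genes 0 passed, but all 7 had positive fold changes. At an unadjusted p under 0.05, 5 were higher, against 5.38% of all genes. In Cldn11 (0.62, adjusted p = 0.0680) and Cnp (0.57, adjusted p = 0.163) all PLX3397 mice lay above all control mice, as in 2.28% of all genes. The depletion itself was plain in each PLX3397 mouse, PLX3397 mouse 2 included: Csf1r had 1.14, 0.386, 1.66 and 1.69 CPM in the PLX3397 mice, against 51.6, 65.0, 58.8 and 59.0 CPM in the control mice, and all 12 microglia genes fell, led by Siglech (-6.33), Cx3cr1 (-6.07), Itgam (-6.07) and Fcrls (-5.81).

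**Figure D5:**
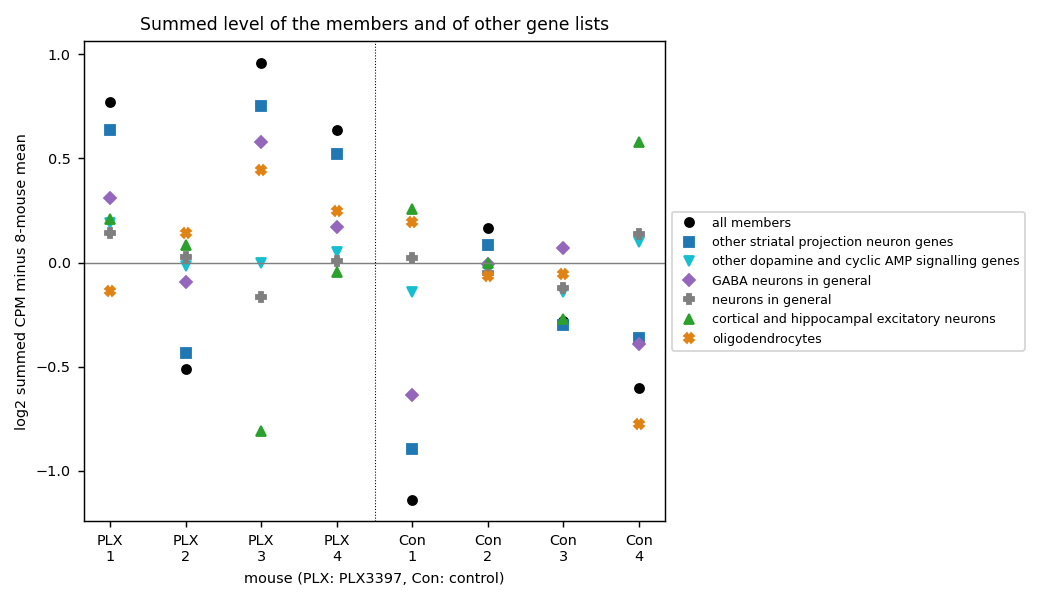
Log2 of the summed CPM of each gene list in each mouse minus its mean over the 8 mice, PLX3397 mice left of the dotted line and control mice right. The members (black) and the other striatal projection neuron genes (blue squares) spread far more than general neuron genes (grey) or the other signalling genes (cyan), and the cortical list (green) is lowest in PLX3397 mouse 3, where the members are highest.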

How the data were processed

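Bulk RNA sequencing counts of 8 whole forebrains were used, each from a separate mouse, grouped by the sample titles. The authors deposited raw counts for each gene symbol. STAR, DESeq2, DESeq, FastQC, MultiQC and mm10 are named in the submitters' processing notes; versions, annotation and strand setting were not given in the sources used here. The members, gene lists and tests were chosen with earlier results of these data known. Genes were filtered with filterByExpr, scaled with TMM and tested over all genes with edgeR 4.0.16 (quasi-likelihood, R 4.3.3, Benjamini-Hochberg adjustment, threshold 0.05). Each SE was the fold change over the root of F, log2 CPM used a prior count of 2, and per-length levels (TPM) used merged exon lengths of GENCODE M21. That annotation, of the same build, places exon bases of another gene over 9 members: Ppp1r1b, Gnal, Rasgrp2, Rarb, Six3, Syndig1l and Arpp21 on the opposite strand, Foxp1 and Serpina9 on the same strand. Reads of these partners may be counted in them.

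Values in each mouse were given for the dopamine receptors, the cyclic AMP genes, the pathway members and the members with extreme fold changes, and for some further members chosen after their values were seen. Of the other lists, up to 4 genes that passed, or the 2 with the smallest p, were named, beside Csf1r, Adora2a, Penk, Tac1 and Pdyn. Further genes of the striatal and signalling lists were named too, among them those that passed without PLX3397 mouse 2. From the hypothalamus, midbrain and T lymphocyte lists only sums are given. The thalamus, olfactory bulb, astrocyte, endothelium and choroid plexus lists, with 0 genes passed, are not described. Alternatives were DESeq2 1.42.0 or its size factors, library size alone, limma-voom (limma 3.58.1), 2 other filters, the replicate number as a block and leaving out each mouse. Steps were tested on simulated counts. No 2 libraries of a group agreed within sampling noise. With 48455538 to 68406688 counts per mouse, the spread between mice, not counting error, limits most values.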

Additional observations from a re-analysis of the deposited data

Results flagged for a closer look

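Single mice stood apart from the other 3 of their group in 13 of 78 groups examined, by the gap to the nearest mouse as a share of the whole range of log2 CPM (Dixon's rule). Chance flags about 1 in 20 groups, and the members vary together, so these are not separate events. In 12 of the 13 the mouse was PLX3397 mouse 2, always at the low end. The shares were 0.848 for Drd2, 0.856 for Ppp1r1b, 0.841 for Rgs9, 0.883 for Rasd2, 0.892 for Foxp1 and 0.863 for Gpr6. They were 0.837 for Cd4, 0.839 for Ptpn7, 0.855 for Syndig1l, 0.859 for Scn4b, 0.842 for Actn2 and 0.847 for Lrrc10b. Foxp1, for example, had 67.5 CPM in that mouse and 142 to 155 CPM in the other PLX3397 mice. The remaining case was Strn in control mouse 1, with a share of 0.853, where it had 57.7 CPM; control mice 2 to 4 had 86.2 to 92.4 CPM.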

How the results depend on the processing

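All 608 fold changes of members under 16 alternatives moved by less than 1 SD between mice. Leaving out 1 of 4 mice can hardly move a fold change by that much, so this count says little about stability. Of the 608, 607 were positive, and the exception was Ebf1, at -0.03 without control mouse 4. The members' median ran from 0.84 to 1.32 when 1 mouse was left out. Members past the threshold numbered 0 in edgeR, 1 with DESeq2, 0 to 12 without 1 mouse, and 12 without control mouse 1 and PLX3397 mouse 2. Genes of the other striatal and signalling lists numbered 0, with 1 under DESeq2, 0 to 8 without 1 mouse and 6 without both mice. Markers of other cells, microglia aside, numbered 0, with 1 under no filter (Cldn11), 2 under DESeq2 (Cldn11 and Cnp) and 0 to 1 without 1 mouse. Over all genes 223 were lower and 11 higher. DESeq2 called 346 lower and 118 higher. Higher genes numbered 25 with no filter, 6 with at least 1 CPM in 4 samples and 138 without both mice. Without 1 mouse there were 178 to 441 lower and 2 to 243 higher genes, the upper ends without PLX3397 mouse 2 and the lowest higher count without PLX3397 mouse 3. With the replicate number as a block, 161 genes were lower, 4 higher and 0 members passed. Deviations of same-numbered mice from their group had correlations over genes of -0.216, -0.172, 0.368 and -0.011 for numbers 1 to 4. So few values cannot decide whether the numbers pair the mice, and the main fit used no pairing. The direct minus indirect difference ran from -0.58 to -0.17 without 1 mouse. Depth limits Drd3 and Ptpn7, each under 10 counts in control mouse 1. The cause of these changes was not tested.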
